A study of Mus musculus with 4 samples.

Results

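The Hox genes were measured by RNA-seq in sympathetic ganglia (SG) from thoracic levels T1–T4 of mice. The members were taken by symbol alone: every mouse gene named *Hoxa*, *Hoxb*, *Hoxc* or *Hoxd* with a number, which gave 39 genes, of which 26 were among the 17667 genes listed in at least 1 library. There were 4 libraries, each made from SG of 6 male C57BL/6 mice aged 12 weeks that were pooled after 1 day at 5 °C. WT 1 and WT 2 came from wild-type mice and formed the WT group (n = 2 pools). The library labelled TRKC+/- was by its label from mice heterozygous for a loss of *Ntrk3*, the gene of the neurotrophin 3 receptor TRKC. It and AdNTF3-Tg are called mutants here by their labels. AdNTF3-Tg mice carried an *Ntf3* transgene, encoding neurotrophin 3, under the adiponectin promoter, which acts in adipocytes, so the ganglia were not themselves the target of the transgene. In the study each mutant had a WT group of its own. The sample labels do not say which WT library that was, and no other source was used to pair them, so both served as WT for each, and counts against each WT library alone are given beside the results. Cold was common to all 4 libraries, and ganglia from other levels of the body were not analysed here.

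Hox genes encode homeodomain transcription factors and lie in 4 clusters, A to D, in which genes are numbered from 1 to 13 by their place. Genes with the same number in different clusters are paralogs, copies that share an ancestor. In the embryo, low numbers are switched on early and far forward, in the hindbrain and neck, and higher numbers later and farther back, so that the combination of active genes marks position along the body axis. Paralogs 6 to 9 are linked to the trunk, and paralogs 10 to 13 to the lumbar, sacral and tail regions. Sympathetic neurons come from trunk neural crest cells, which migrate from the neural tube beside each segment. Adult cells often keep part of their Hox pattern.

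The clusters had the following places on the build NCBIM37 (mm9). The A cluster lay on the minus strand of chr6. The B cluster spanned chr11:96055630-96229570, the C cluster chr15:102751534-102867274 and the D cluster chr2:74506367-74603200, all on the plus strand. In each cluster the last gene with any reads belonged to paralog 9, although *Hoxa9* had only 1 read in all, below the limit of 3, and shares exon bases with 3 other genes on its strand. *Hoxd9* (chr2:74535737-74538265) and *Hoxd10* (chr2:74529147-74533163) lay 2573 bases apart, *Hoxc9* and *Hoxc10* 4545 bases and *Hoxa9* and *Hoxa10* 107 bases. *Hoxb9* and *Hoxb13* lay 74009 bases apart, because the mouse B cluster holds no paralog between them.

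The sequences before the start sites of 3 members are shown for this border and for the member with the highest level. *Hoxc4* (chr15:103034145-103034394 on GRCm38.p6) had the highest level, *Hoxd9* (chr2:74697513-74697762) was the last D gene with reads, and *Hoxd10* (chr2:74691641-74691890) was the first without. Each run holds the 250 bases before a RefSeq start site, 5′ to 3′ on the plus strand, with CG dinucleotides, the sites at which DNA can be methylated, in capitals.
Hoxc4: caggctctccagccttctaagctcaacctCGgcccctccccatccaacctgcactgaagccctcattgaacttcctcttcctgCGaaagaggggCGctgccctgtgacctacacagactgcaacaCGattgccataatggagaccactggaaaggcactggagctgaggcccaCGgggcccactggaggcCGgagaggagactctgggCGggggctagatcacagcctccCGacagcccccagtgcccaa
Hoxd9: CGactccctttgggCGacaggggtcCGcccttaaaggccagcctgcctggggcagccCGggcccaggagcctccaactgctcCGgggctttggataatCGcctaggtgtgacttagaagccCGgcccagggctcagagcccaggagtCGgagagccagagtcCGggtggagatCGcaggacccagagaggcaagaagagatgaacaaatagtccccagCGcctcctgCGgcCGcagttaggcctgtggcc
Hoxd10: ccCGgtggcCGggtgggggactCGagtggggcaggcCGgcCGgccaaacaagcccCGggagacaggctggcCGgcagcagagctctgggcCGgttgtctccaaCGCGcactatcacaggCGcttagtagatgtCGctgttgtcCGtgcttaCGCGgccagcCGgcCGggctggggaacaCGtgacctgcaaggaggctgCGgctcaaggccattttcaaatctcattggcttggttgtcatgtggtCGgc
These runs held 8, 13 and 20 CG dinucleotides in *Hoxc4*, *Hoxd9* and *Hoxd10*. Over windows of 300 bases, 250 before to 50 after the start, the member with the highest level had fewer CG than the pair at the border, with 9 in *Hoxc4*, 20 in *Hoxd9* and 22 in *Hoxd10*. RefSeq windows were at hand for 22 of the 39 members, in 24 windows. The median was 7 CG per window over all 32851 mouse windows, 13.5 (4 to 29) over 14 windows of listed members and 21.0 (4 to 45) over 9 windows of paralogs 10 to 13. The motif TGATNNAT, letters bound by pairs of Hox and Pbx proteins, was searched on both strands and stood in 8.85% of all windows, in 2 of 14 windows of listed members and in 1 of 9 windows of paralogs 10 to 13. These are descriptions of sequence, and neither methylation nor binding was measured.

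The reads counted on genes summed to between 8665955 and 8894985 per library, so that 3 reads, the limit that a gene had to exceed to count as detected, equalled 0.337 to 0.346 CPM, or counts scaled to the library total. The tissue label was checked with marker genes. All 14 sympathetic neuron markers were over 3 reads in every library, with a summed level of 11587 to 12282 FPKM (reads scaled to gene length and library size). Spinal cord markers summed to 12.7 to 15.2 FPKM, with *Mnx1*, *Slc32a1* and *Olig2* at 0, and the bone markers *Bglap* and *Ibsp* were also at 0. Sensory neuron markers summed to 201 to 217 FPKM, of which *Avil* held 195 to 207 and the other 9 genes 5.81 to 11.4. Satellite glia markers summed to 441 to 593, Schwann cells to 540 to 575 and fibroblasts to 248 to 324 FPKM. Endothelial markers summed to 26.1 to 30.8, smooth muscle to 33.2 to 37.7, adipocytes to 156 to 226 and macrophages to 63.9 to 87.1 FPKM. Within the adipocyte list, *Ucp1* was at 47.33 FPKM in WT 1, 48.14 in WT 2, 7.80 in the library labelled TRKC+/- and 37.81 in AdNTF3-Tg. As a list, skeletal muscle markers stood apart, at 97.8 FPKM in WT 1, 3.63 in WT 2, 45.6 in the library labelled TRKC+/- and 34.8 in AdNTF3-Tg. *Ntrk3* was at 2.45 and 2.52 FPKM in WT 1 and WT 2, 2.72 in the library labelled TRKC+/- and 2.32 in AdNTF3-Tg. The study reports reduced *Ntrk3* expression in SG of TRKC+/- mice, from a separate measurement. Here the level of the targeted gene was not lower in the library labelled TRKC+/-, and that label had no support from its own gene. *Ntf3* had 2 reads in that library and 0 in the other 3, so the AdNTF3-Tg label had no check either, in a tissue where the transgene is not meant to act. In such bulk samples, fewer cells of a type and less RNA per cell cannot be told apart, nor can the cell type that held the Hox RNA.

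Hox transcripts were listed from paralog 1, which had few reads, to paralog 9 and stopped there. Of the 27 genes of paralogs 1 to 9, 26 were listed in at least 1 library and 23 in all 4, whereas 0 of the 12 genes of paralogs 10 to 13 were listed in any library. *Hoxb1*, which acts in the hindbrain, was the one gene of paralogs 1 to 9 without reads. Over 3 reads in all 4 libraries, 16 genes were detected: 5 of 8 of paralogs 1 to 3, 4 of 7 of paralogs 4 and 5, and 7 of 12 of paralogs 6 to 9. By cluster they were 2 of 11 A genes, 5 of 10 B genes, 5 of 9 C genes and 4 of 9 D genes. All C genes from *Hoxc4* to *Hoxc9* were over 3 reads in every library, and all C genes from *Hoxc10* to *Hoxc13* were at 0.

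**Figure D1:**
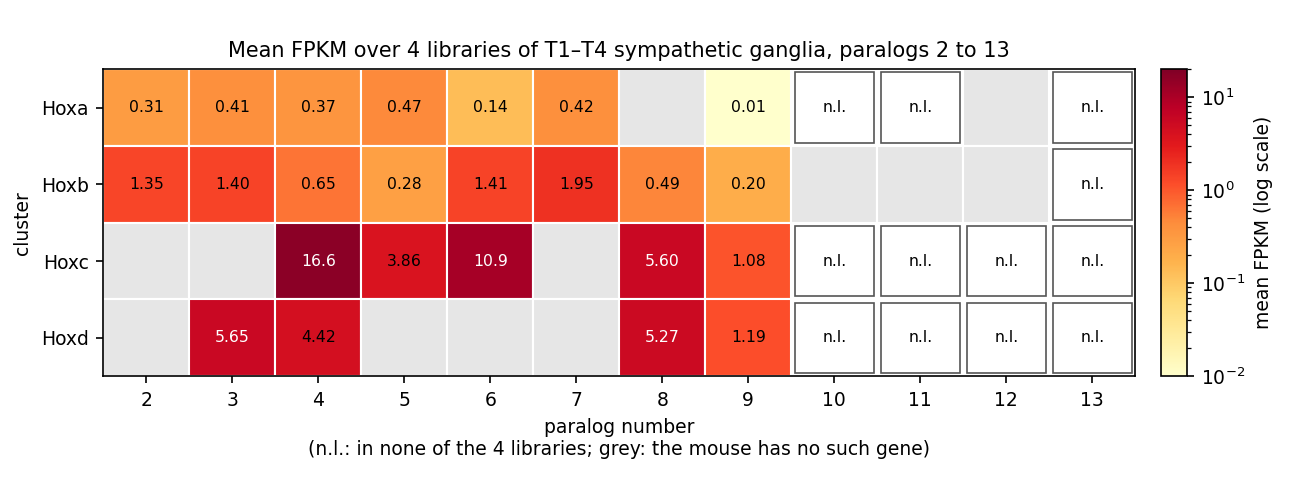
Mean level over 4 libraries (FPKM, colour on a log scale) of the Hox genes of paralogs 2 to 13, by cluster (rows) and paralog number (columns). The highest values lie at *Hoxc4* (16.6) and *Hoxc6* (10.9), and no gene right of paralog 9 was listed.

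The absence of paralogs 10 to 13 rested on a total of 4564 Hox reads over the 4 libraries, 1109 in WT 1, 1148 in WT 2, 1171 in the library labelled TRKC+/- and 1136 in AdNTF3-Tg. A count of 0 of 4564 allows these 12 genes a share of up to 0.0657% of the Hox reads, and of up to 0.256% to 0.271% in single libraries, as 3 reads divided by the Hox reads. The upper ends of the 95% Clopper-Pearson intervals in single libraries were 0.315% to 0.332%. Over all 4 libraries, 3 reads equalled 0.0852 CPM. These limits cover counting error only. The tables list no gene at 0, so that a gene without reads and a gene outside the authors' annotation look alike. No Hox gene had an identifier above the highest one in the tables, but this does not show that each was annotated.

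Together the Hox genes held 128, 130, 132 and 129 CPM in WT 1, WT 2, the library labelled TRKC+/- and AdNTF3-Tg. Their summed level was 63.36, 65.89, 66.43 and 62.67 FPKM in the same order. In FPKM both WT libraries lay between the mutants, but in CPM AdNTF3-Tg lay between the WT libraries. The highest 3 genes, *Hoxc4*, *Hoxc6* and *Hoxd3*, held between 50.4% and 52.5% of the summed level in each library, and the highest 7 between 79.6% and 82.5%.

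By cluster, the C genes held 58.8% of the summed Hox level (mean of 4 libraries, 57.4% to 60.6%), the D genes 25.7% (23.5% to 26.7%), the B genes 11.9% (11.3% to 12.8%) and the A genes 3.55% (2.60% to 4.89%). The ranges of the 4 clusters did not overlap, so each library gave the order C, D, B, A. The WT values were 59.2% ± 1.91 for C, 24.8% ± 1.71 for D, 12.0% ± 1.06 for B and 4.01% ± 1.25 for A (SD, n = 2). Reads, which are not corrected for gene length, gave the C genes 56.4% (95% Clopper-Pearson interval 53.5% to 59.4%) of Hox reads in WT 1 and 59.4% (56.5% to 62.3%) in WT 2.

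By position, paralogs 6 to 9, the trunk group, held 44.3% of the summed level (41.2% to 46.7%), paralogs 4 and 5 held 41.2% (39.0% to 42.8%) and paralogs 1 to 3 held 14.5% (13.1% to 16.1%). Paralogs 4 and 5 and paralogs 6 to 9 did not differ beyond the spread of libraries: both held 42.8% in WT 1, and the former were at 42.7% and the latter at 41.2% in AdNTF3-Tg. Their order also turned when reads were not divided by gene length. Paralog 4 held the largest share of any number in every library (32.4% to 36.7%). Paralog 6 followed with 16.2% to 22.0% and paralog 8 with 15.8% to 19.0%, ranges that overlapped. Paralog 9, the last with reads, held 3.27% to 4.50%.

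**Figure D2:**
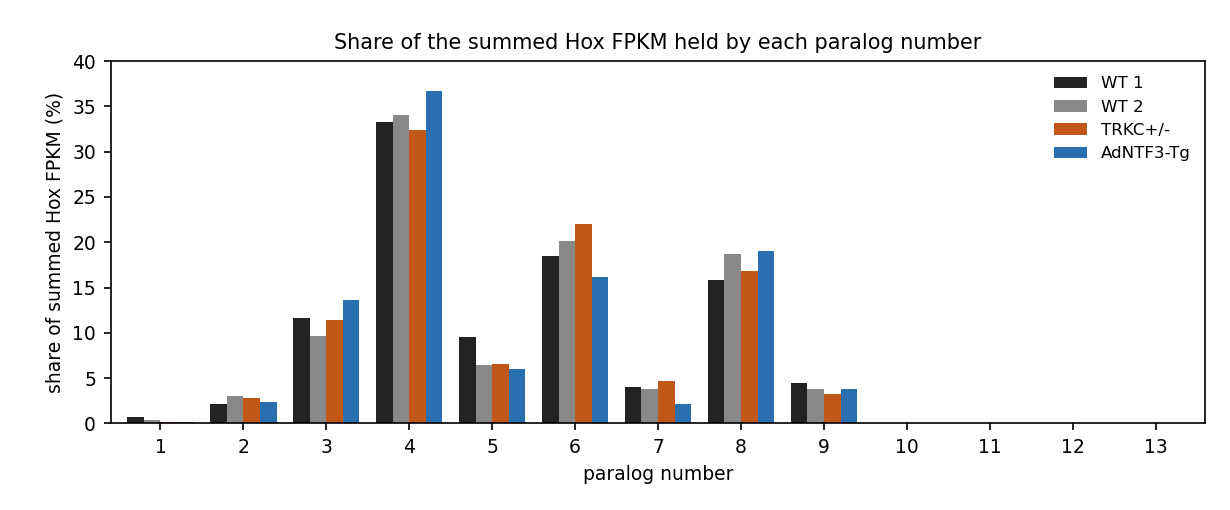
Share of the summed Hox FPKM (%, vertical axis) of each paralog number (horizontal axis) in each of the 4 pooled libraries (bars). Paralog 4 is the tallest group in all 4 libraries (32.4% to 36.7%), and paralogs 10 to 13 have no bar.

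Among paralogs 1 to 3, the hindbrain and neck genes, *Hoxd3* was the highest, at 5.69 FPKM in WT 1, 4.90 in WT 2, 5.77 in the library labelled TRKC+/- and 6.24 in AdNTF3-Tg. *Hoxd3* shares exon bases on the same strand with *Hoxd4*, and its span (chr2:74549986-74586331) contains *Hoxd4* (chr2:74560035-74567217), so reads could be assigned to either. *Hoxb3* followed with 1.20, 1.07, 1.45 and 1.88 FPKM in the same order, and was highest in AdNTF3-Tg. *Hoxb2*, a regulator of hindbrain segments, was at 1.09, 1.73, 1.43 and 1.16 FPKM, with both mutants between the WT libraries. *Hoxd1* was near the limit, with 1 and 2 reads in the WT libraries and 0 in both mutants. At such counts no order of libraries could be read. *Hoxa2* and *Hoxa3* had 4 to 10 reads in each library.

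Paralogs 4 and 5 act in the patterning of the neck. *Hoxc4* (chr15:102849367-102867274 on NCBIM37) was the highest Hox gene in every library, at 16.15 FPKM in WT 1, 17.51 in WT 2, 15.47 in the library labelled TRKC+/- and 17.18 in AdNTF3-Tg, from 265 to 297 reads. Its mean of 16.58 FPKM was above 72.8% of listed genes, and *Hoxc4* alone held 23.3% to 27.4% of the summed Hox level. *Hoxd4* was at 3.81, 4.30, 5.12 and 4.46 FPKM in the same order, with both mutants above both WT libraries. *Hoxc5* was at 4.85, 3.86, 3.57 and 3.15 FPKM, with both mutants below both WT libraries. *Hoxa4*, *Hoxa5*, *Hoxb4* and *Hoxb5* had means of 0.275 to 0.645 FPKM and 2 to 23 reads per library.

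In the trunk group, *Hoxc6* (chr15:102828688-102842312), which marks the front of the thorax, was the highest, at 10.09 FPKM in WT 1, 10.96 in WT 2, 13.04 in the library labelled TRKC+/- and 9.46 in AdNTF3-Tg. The mutants lay on either side of the WT libraries. *Hoxc8*, expressed at thoracic and brachial levels of the embryo, was at 4.67, 6.13, 5.15 and 6.46 FPKM in the same order. *Hoxd8* was at 5.20, 5.41, 5.68 and 4.77 FPKM. The C and D genes of paralog 9 were lower than those of paralog 8: *Hoxc9* was at 0.90, 1.44, 0.88 and 1.10 FPKM and *Hoxd9* at 1.69, 0.78, 1.16 and 1.12. In every library *Hoxc9* was below *Hoxc8* and *Hoxd9* below *Hoxd8*, the nearest paralog in its own cluster. The other 2 genes of paralog 9 were lower, with means of 0.195 FPKM for *Hoxb9* and 0.01 for *Hoxa9*, the latter from 1 read in WT 1. In the B cluster, *Hoxb7* was at 2.08, 1.97, 2.60 and 1.13 FPKM and *Hoxb6* at 1.42, 1.95, 1.57 and 0.71 FPKM, both lowest in AdNTF3-Tg. *Hoxa6* had 1 and 2 reads in the WT libraries and 0 in the mutants.

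The order of the 13 members whose mean reached 1 FPKM had 3 clear steps: the lowest *Hoxc4* value (15.47) was above the highest *Hoxc6* value (13.04), the lowest *Hoxc6* value (9.46) above the highest *Hoxd3* value (6.24), and the lowest *Hoxc5* value (3.15) above the highest *Hoxb7* value (2.60). All other neighbours in the order overlapped between libraries, from *Hoxd3* down to *Hoxc5* and from *Hoxb7* down to *Hoxc9*. The 5 members from *Hoxd3* to *Hoxc5* were near the median of listed genes, 5.66 FPKM. A further 13 members were listed with a mean under 1 FPKM (0.01 to 0.645), with at most 23 reads in a library.

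**Figure D3:**
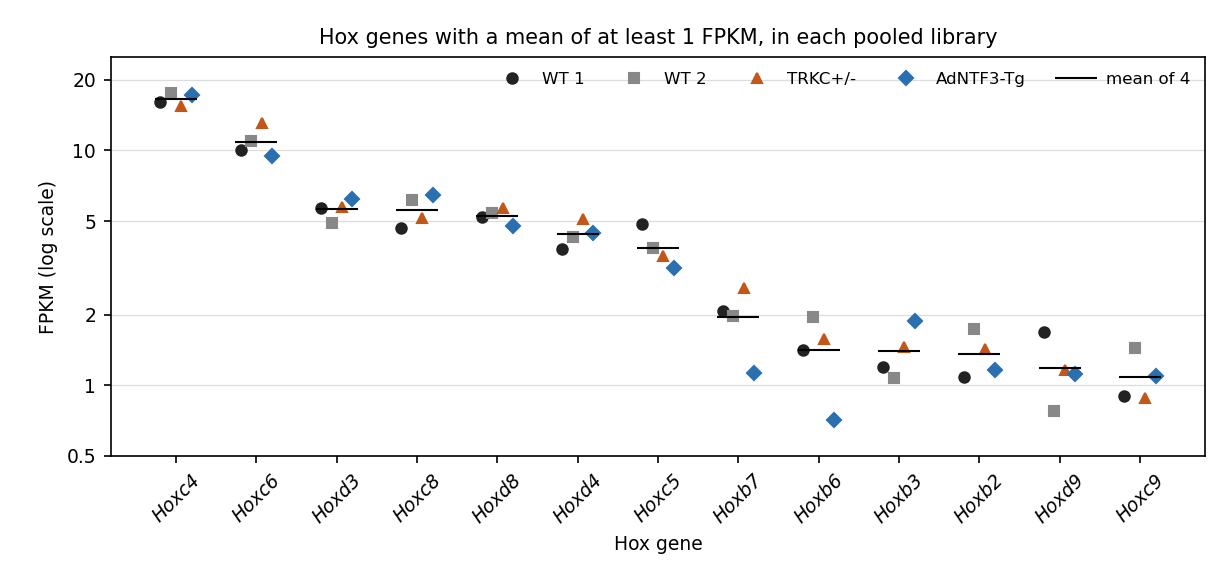
Level (FPKM, log axis) in each pooled library of 13 Hox genes whose mean reached 1 FPKM, with points for libraries and a line for the mean of 4. The points of *Hoxc4* (15.47 to 17.51) and *Hoxc6* (9.46 to 13.04) lie above those of every other gene, and *Hoxb6* and *Hoxb7* are lowest in AdNTF3-Tg.

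Each mutant was then compared with WT, gene by gene. Folds are log2((FPKM + 0.1)/(WT mean + 0.1)), with a cutoff of 0.5, and ranges in brackets are 95% exact counting intervals of the read ratio. The 18 members with at least 20 reads over the 4 libraries entered, among 14488 genes. The quasi-likelihood test of edgeR had 1 residual degree of freedom, from the WT libraries, and assumed that each single mutant library varied like them. The comparisons share both WT libraries.

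In the library labelled TRKC+/-, 0 of 18 Hox genes passed the fold cutoff, while 6.63% of all genes did. Their folds ran from -0.37 to 0.35 with a median of -0.08, against 0.00 for all genes. *Hoxc6*, at 13.04 FPKM against 10.53 ± 0.615 in WT (SD, n = 2), was 0.31 higher on the log2 scale (0.03 to 0.58), the one member whose counting interval left out 0. *Hoxd4* was 0.33 higher (-0.02 to 0.68) and *Hoxc5* 0.28 lower, at a log2 fold of -0.28 (-0.67 to 0.09). By edgeR, 0 of 18 passed the adjusted threshold of 0.05, with adjusted p from 0.998 to 0.999, and 0.00690% of all genes did, a single gene. At an unadjusted p under 0.05 there were 0 Hox genes by edgeR, against 280 of all 14488 genes, and 0 by DESeq2. A count of 0 among 18 genes is near that share. Against WT 2 alone 4 members and 10.7% of all genes passed the fold cutoff, and against WT 1 alone 2 members and 8.72%: *Hoxb8* was at 0.97 against WT 1 and -0.98 against WT 2, and *Hoxd9* at -0.51 and 0.52. *Hoxa5* was at 1.71 and *Hoxc9* at -0.65 against WT 2. Against both WT libraries in 1 direction, 0 members and 3.26% of all genes passed.

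In AdNTF3-Tg, 6 of 18 Hox genes (33.3%) passed the fold cutoff, against 9.12% of all genes, with *Hoxb3*, *Hoxb4* and *Hoxb8* higher and *Hoxa7*, *Hoxb6* and *Hoxb7* lower. All 6 were among the 11 members with fewer than 200 summed reads, and of all 3120 genes in that range 33.1% passed the cutoff; the limit of 200 was chosen after the values were seen. By edgeR, 0 of 18 passed the adjusted threshold, with adjusted p from 0.826 to 0.983, and 0% of all genes did. At an unadjusted p under 0.05 there were 0 Hox genes by edgeR, against 806 of all 14488 genes, and 0 by DESeq2. Here too, a count of 0 among 18 genes is near the share of all genes. The median Hox fold was -0.11, against -0.00 for all genes. Against WT 2 alone 7 members and 11.5% of all genes passed the fold cutoff, and against WT 1 alone 9 members and 12.1%.

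Of these 6 genes, 5 belonged to the B cluster, which had 6 of the 18 members. Each of those 6 B members had 45 to 163 summed reads, below the limit of 200. Between WT 1 and WT 2, 3 of the 6 B members passed the same cutoff. *Hoxb3* was at 1.88 FPKM against 1.14 ± 0.0919 in WT, a log2 fold of 0.68 (0.21 to 1.29), from 55 reads against 34 and 31. Its neighbour *Hoxb4* was at 1.04 FPKM in AdNTF3-Tg, 0.64 and 0.41 in the WT libraries and 0.49 in the library labelled TRKC+/-. Its fold against WT in AdNTF3-Tg was 0.87 on the log2 scale (0.09 to 1.89). The genes next along the cluster were lower. *Hoxb6* was at 0.71 FPKM against 1.69 ± 0.375 in WT, a log2 fold of -1.14 (-2.57 to -0.13), from 8 reads against 16 and 22. *Hoxb7* had a log2 fold of -0.79 (-1.91 to 0.10), from 12 reads against 22 and 21. The exons of *Hoxb7* and *Hoxb8* overlap on the same strand, and *Hoxb3* overlaps the antisense gene *Hoxb3os*, which was not listed. Between these genes, *Hoxb5* had only 3 to 6 reads per library and was not tested.

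*Hoxb8* depended on the WT library: it had 3 reads in WT 1, 18 in WT 2, 8 in the library labelled TRKC+/- and 16 in AdNTF3-Tg, so that its log2 fold in AdNTF3-Tg was 1.80 against WT 1 and -0.15 against WT 2. *Hoxa7* had 8, 9, 8 and 3 reads in the same order and a log2 fold of -1.12 (-3.92 to 0.28). Without *Hoxb8*, 5 members passed the cutoff in 1 direction against each WT library, where 4.74% of all genes and 18.5% of genes with fewer than 200 reads did, a rule also chosen after the values were seen. Among the 8 members with at least 100 reads, *Hoxb3* alone passed, against 4.28% of all genes at that depth. Of these, *Hoxc5* had a log2 fold of -0.45 (-0.87 to -0.08), and the other 6 had counting intervals that held 0.

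Between WT 1 and WT 2, libraries of 1 genotype, 6 of 18 Hox genes passed the same cutoff, as many as in AdNTF3-Tg, against 11.5% of all genes. *Hoxa5*, *Hoxb4* and *Hoxd9* were higher in WT 1, and *Hoxb2*, *Hoxb8* and *Hoxc9* higher in WT 2. All 6 had fewer than 200 reads, a range in which 38.6% of all genes passed. *Hoxa5*, named after its values were seen, had 13 reads in WT 1, 2 in WT 2, 10 in the library labelled TRKC+/- and 5 in AdNTF3-Tg, a log2 ratio of 2.06 between the WT libraries (0.59 to 5.92). *Hoxd9* had 30, 14, 21 and 20 reads, and its WT ratio was 1.02 (0.17 to 2.16). The skeletal muscle markers had the same order of libraries as *Hoxa5* and *Hoxd9* (97.8, 3.63, 45.6 and 34.8 FPKM), and their part in these reads was not tested. The ratio of *Hoxb8* was -1.95 (-4.96 to -0.78). Among the 8 members with at least 100 reads, 0 passed the cutoff between WT libraries, and their log2 ratios ran from -0.39 to 0.32.

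**Figure D4:**
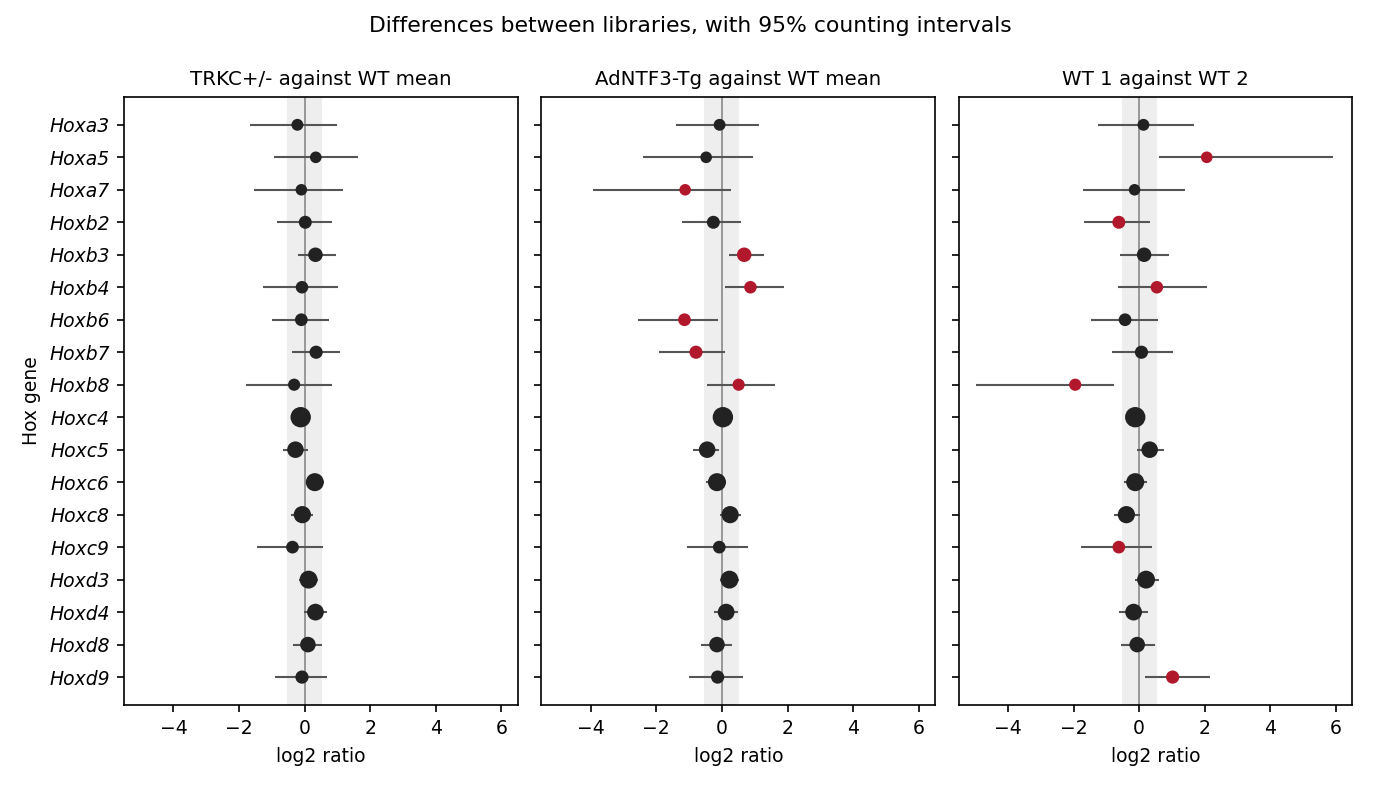
Log2 ratio of FPKM + 0.1 (points, larger with more reads) with 95% counting intervals of the read ratio (lines) for the 18 Hox genes with at least 20 reads, in 3 comparisons. Red points are at or past the cutoff of 0.5 (outside the grey band): 0 for TRKC+/-, 6 for AdNTF3-Tg and 6 between the WT libraries.

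Hox proteins bind DNA together with TALE homeodomain cofactors of the Pbx, Meis and Pknox families. All 9 cofactor genes were over 3 reads in every library, with a summed level of 74.8 to 83.3 FPKM, above the 62.67 to 66.43 FPKM of all Hox genes together. *Meis3* was the highest, at 26.15, 25.64, 27.92 and 25.51 FPKM in WT 1, WT 2, the library labelled TRKC+/- and AdNTF3-Tg. *Pbx2* was at 19.30 to 21.34 and *Meis1* at 12.85 to 15.47 FPKM. In neither mutant did any of the 9 pass the fold cutoff, which 6.63% and 9.12% of all genes passed in the library labelled TRKC+/- and in AdNTF3-Tg, or the edgeR threshold. A count of 0 among so few genes is near those shares. *Meis2* was at a log2 ratio of -0.51 between WT 1 and WT 2 (-2.08 to 0.58), past the fold cutoff, from 9 and 15 reads. *Gmnn*, encoding geminin, which binds Hox proteins, was at 4.90 to 5.77 FPKM.

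Polycomb proteins keep silent Hox genes silent, and Trithorax proteins keep active ones active. All 17 Polycomb genes were over 3 reads in every library, with a sum of 210 to 216 FPKM, led by *Cbx6* (68.37 to 72.93), *Phc2* (25.54 to 31.00) and *Ezh1* (20.06 to 21.46). All 10 Trithorax genes were over 3 reads too, with a sum of 123 to 130 FPKM, and *Men1*, for menin, was at 36.37 to 38.69. Against the same shares of all genes, in neither list did a gene pass the fold cutoff or the edgeR threshold in either mutant, while *Bmi1* (-0.56) and *Cbx8* (0.71) passed the fold cutoff between WT 1 and WT 2, as 11.5% of all genes did. Retinoic acid signalling sets Hox expression in the embryo. Of its 14 genes 13 were listed and 10 were over 3 reads in all libraries, led by *Rxrb* (15.29 to 17.43), *Crabp1* (12.33 to 17.66) and *Rarg* (12.70 to 14.60 FPKM). *Aldh1a3*, an enzyme that makes retinoic acid, passed the fold cutoff in AdNTF3-Tg, as 9.12% of all genes did, with 23, 22 and 20 reads in WT 1, WT 2 and the library labelled TRKC+/- and 9 in AdNTF3-Tg, a log2 fold of -1.10 (-2.55 to -0.28); its adjusted p by edgeR was 0.826. Between WT 1 and WT 2, 2 of the 10 genes of this list with at least 20 reads passed the cutoff, as 11.5% of all genes did: *Aldh1a1* at 0.61 (0.23 to 1.03) and *Cyp26b1* at 0.92 (0.22 to 1.97).

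Of 7 other regulators of the body axis, *Gdf11*, a secreted factor of the trunk-to-tail transition, was listed, at 6.21, 5.76, 4.49 and 5.21 FPKM. *Cdx1*, *Cdx2*, *Cdx4*, *Evx1*, *Evx2* and *T* were at 0 in all 4 libraries. *Evx1* and *Evx2* lie beside the last genes of the A and D clusters, next to the unlisted *Hoxa13* and *Hoxd13*. Of 15 noncoding RNA genes of the clusters, matched by gene identifier, *Hoxaas3* (2 reads in WT 1) and *Hoxd3os1* (1 read in WT 1 and 4 in WT 2) were listed. The other 13, among them *Hotair*, *Hottip* and 6 microRNA genes, were not, but 4 of the 15 have identifiers above the highest in the tables, and oligo(dT) libraries hold little microRNA: 7 genes with a microRNA symbol were listed in all. Of 32 other RefSeq genes that lie inside the clusters, 4 were listed, with at most 5 reads in a library, against up to 297 for a Hox gene.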

How the data were processed

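Each of 4 libraries was a pool of T1–T4 SG from 6 mice. Per the study's methods, oligo(dT) beads isolated mRNA, 50-base single-end reads passed the SOAPnuke filter (v1.5.2), and HISAT2 (v2.0.4) aligned them to mm9; the submitters' processing notes instead name RSEM and mm10. The conflict was not settled, and the strand setting is not given in the sources used here. The deposited tables give, by Entrez identifier, each gene's expected count as the authors estimated it, without scaling, with a length and an FPKM value. Between 92.6% and 93.7% of counts per library were whole, as were those of all 26 listed Hox genes. Genes absent from a table were taken as 0.

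Counts were rounded and tested with the quasi-likelihood test of edgeR 4.0.16 (R 4.3.3, TMM scaling, at least 20 reads summed over all 4 libraries, Benjamini-Hochberg adjustment over 14488 genes). DESeq2 1.42.0 was an alternative. Each count of 0 calls is given with that at an unadjusted p under 0.05. The labels name 1 pool for each mutant and 2 for WT, so the p-values measure only the spread between the WT pools. The edgeR test of the library labelled TRKC+/- was checked on simulated data. That check used large changes in genes with many reads, so it cannot show whether small changes in genes with few reads would be found. Levels between genes were compared as FPKM; shares of reads and of CPM, which are not corrected for length, are given beside them and named as such. Counting intervals are exact Clopper-Pearson intervals (95%) of the read share, converted to ratios; reads carry no molecular identifiers, so neither these intervals nor the 3-read floor cover more than counting error. Alternatives were other pseudocounts, cutoffs, filters and scalings, and each WT library left out.

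Symbols came from a RefSeq table on GRCm38.p6, used for names only (17619 identifiers, 99.7%), start-site sequences from RefSeq on GRCm38.p6, and gene positions from GENCODE vM1 on NCBIM37. By exons, 12 of the 39 Hox genes overlap another gene on the same strand and 8 on the opposite strand. Values in every library are given for members whose mean reached 1 FPKM, the highest member of each paralog number and members past a call with at least 20 reads; of the companion lists, those called are given with their values and up to 3 with the highest level by their range or in every library. The values of 1 member are not reported here. The members, lists and position classes were chosen with earlier results of these data known.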

Additional observations from a re-analysis of the deposited data

How the results depend on the processing

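The 16 Hox genes over 3 reads in all libraries became 23 with any listed value and 12 with at least 10 reads, and 0 genes of paralogs 10 to 13 had reads under each. Without division by gene length (CPM), paralogs 1 to 3 held 19.2%, paralogs 4 and 5 43.8% and paralogs 6 to 9 36.9% of the Hox level, the C genes 56.8% and the D genes 28.4%. Without the highest gene of each paralog number, paralogs 1 to 3 held 12.5%, 4 and 5 35.7% and 6 to 9 51.8%, and the A, B, C and D genes 12.2%, 25.5%, 6.22% and 56.0%. That setting removes 4 of the 5 listed C genes by its construction (*Hoxc4*, *Hoxc5*, *Hoxc6* and *Hoxc8*), so it says nothing about the order of the clusters. The number of Hox genes past the fold cutoff in the library labelled TRKC+/- rose from 0 to 5 of 26 without a filter on reads (14.6% of all genes), and lay between 2 and 4 when 1 WT library was left out (8.72% and 10.7% of all genes). In AdNTF3-Tg it fell from 6 to 2 with a pseudocount of 1 (2.74% of all genes), to 2 with a cutoff of 1 (1.84%) and to 1 with at least 100 reads (4.28%), and lay between 7 and 9 when 1 WT library was left out (11.5% and 12.1%). Between the WT libraries it fell from 6 to 3 (4.29%), 3 (2.84%) and 0 (6.29%) under the same 3 settings. The number of Hox genes past the edgeR threshold was 0 in both mutants under each of the 6 alternatives, DESeq2 among them, and of 194 recomputed fold changes of members 0 passed it. There was 1 pool for each mutant and 2 for WT, and a Hox gene had at most 297 reads in a library. No paired analysis was possible because each mutant had 1 library and the sample labels do not pair it with a WT library; no other source of the pairing was used.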
